A study of Homo sapiens with 6 samples.

Results

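CXCL1, CXCL2, CXCL3, CXCL5, CXCL6 and CXCL8 are the 6 CXC chemokines described here, small secreted proteins best known for drawing neutrophils. They were taken by gene symbol from 2 tables of gene expression, in which they are 6 of 25368 symbols. The tables come from RNA-seq of MRC5, a human fibroblast line from embryonic lung that the study had immortalised with hTERT, and hold 6 libraries, 1 per condition. In the first table, cells were infected for 2 h with adenovirus carrying an empty vector (control), FLAG-tagged wild-type JUN (JUN WT) or a JUN with the serines phosphorylated by JNK changed to alanine (JUN AA), and then cultured for 3 days. In the second, MRC5 cells received no treatment, or were turned into induced cancer-associated fibroblasts (iCAFs) by 7 days in medium conditioned by MDA-MB-231 breast cancer cells, or were iCAFs given JNKi, a JNK inhibitor, at 1 µM for 48 h (iCAFs+JNKi). The labels do not say whether the iCAFs library received the vehicle DMSO. The study collected its conditioned medium without serum and maintained MRC5 with serum. It does not say whether serum was added during the 7 days, and the part of serum was not tested. These are cultures of 1 fibroblast line without any neutrophils. In the first table the virus added JUN to that of the cells' own locus, and the FPKM of JUN do not separate them.

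These chemokines carry the residues glutamate, leucine and arginine before the first cysteines and act through the receptors CXCR1 and CXCR2, which neutrophils bear on their surface. CXCL8, also known as interleukin 8, and CXCL6 bind both receptors, whereas CXCL1, CXCL2, CXCL3 and CXCL5 act mainly through CXCR2. In resting fibroblasts their genes are mostly silent. IL-1 and TNF switch them on through NF-kB, with AP-1, the dimer to which JUN belongs, as a further activator of CXCL8, and their short-lived mRNAs are stabilised by the p38 pathway.

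The sequences just upstream of the 6 start sites are shown because the study compares regulators that bind DNA, and because the genes differed in their response. Each line gives the 150 bases before the start site in RefSeq, 5′ to 3′ on the strand of the gene, on GRCh38.p14: chr4:73869243-73869392 for CXCL1 on the plus strand, chr4:74099196-74099345 for CXCL2 on the minus strand, chr4:74038690-74038839 for CXCL3 on the minus strand, chr4:73998678-73998827 for CXCL5 on the minus strand, chr4:73836528-73836677 for CXCL6 on the plus strand, chr4:73740419-73740568 for CXCL8 on the plus strand. Capitals mark the motifs searched for, namely the NF-kB consensus and its form GGAATTTCC, the AP-1 heptamers TGACTCA and TGAGTCA, and the TATA box TATAAA.
CXCL1: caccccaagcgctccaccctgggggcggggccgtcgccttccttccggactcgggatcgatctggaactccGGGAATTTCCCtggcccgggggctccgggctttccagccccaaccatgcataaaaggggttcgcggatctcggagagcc
CXCL2: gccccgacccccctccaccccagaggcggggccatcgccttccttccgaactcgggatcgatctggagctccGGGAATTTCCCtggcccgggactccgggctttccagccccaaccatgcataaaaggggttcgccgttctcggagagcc
CXCL3: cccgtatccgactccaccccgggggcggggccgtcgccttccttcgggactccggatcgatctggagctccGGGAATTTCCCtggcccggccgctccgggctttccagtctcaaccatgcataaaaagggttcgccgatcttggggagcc
CXCL5: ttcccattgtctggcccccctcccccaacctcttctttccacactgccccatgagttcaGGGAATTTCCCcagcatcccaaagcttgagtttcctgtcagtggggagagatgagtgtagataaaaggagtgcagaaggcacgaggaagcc
CXCL6: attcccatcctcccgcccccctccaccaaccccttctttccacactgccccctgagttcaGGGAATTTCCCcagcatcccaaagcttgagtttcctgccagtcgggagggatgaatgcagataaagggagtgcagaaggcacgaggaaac
CXCL8: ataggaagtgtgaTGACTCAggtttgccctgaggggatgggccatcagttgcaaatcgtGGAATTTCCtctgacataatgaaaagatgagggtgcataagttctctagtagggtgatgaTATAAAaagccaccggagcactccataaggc

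All 6 promoters held GGAATTTCC within the 300 bases searched on both strands, from 250 bases before the start site to 50 after it. Of all 35116 RefSeq promoters searched, 0.461% held it. Counted from the start site, its first base was at -78 in CXCL1, -77 in CXCL2, -78 in CXCL3, -90 in CXCL5, -89 in CXCL6 and -91 in CXCL8. The NF-kB consensus, which overlaps these letters, matched in 5 of 6 promoters against 11.3% of all, and CXCL8 was the one without a match. CXCL8 held the AP-1 heptamer TGACTCA at -137 and the TATA box at -31. Neither matched in the windows of the other 5 members, and they occurred in 4.95% and 11.5% of all promoters. These matches describe letters in a window and not bound sites.

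**Figure D1:**
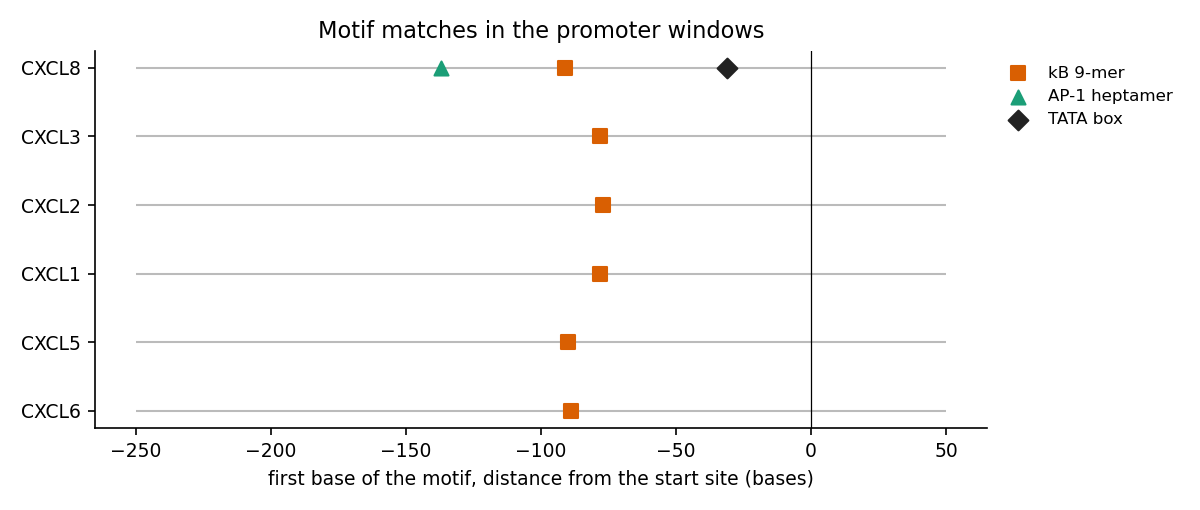
First base of each motif match, in bases from the start site on the horizontal axis, with 1 line per chemokine gene spanning the window searched. Squares stand for GGAATTTCC (kB 9-mer), which lies between -91 and -77 in all 6, the triangle for the AP-1 heptamer and the diamond for TATAAA, both matched in these windows only in CXCL8.

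Over the 250 bases upstream, the promoters fell into groups by likeness. CXCL5 and CXCL6 were identical at 85.3% of aligned bases, CXCL1 and CXCL3 at 81.4%, CXCL2 and CXCL3 at 73.3% and CXCL1 and CXCL2 at 70.4%. The other pairs lay between 42.0% and 51.5%, and CXCL8 was at most 45.4% identical to any other member.

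The deposited values are FPKM, which divide the fragments of a gene by exon length and library size. They can be set side by side between genes, and libraries were compared only within a table, since each table has its own untreated or empty-vector library. The FPKM of a library summed to 494588 in control and 613162 in JUN AA, so libraries of 1 table do not share a common sum. With 1 library per condition no difference has a replicate check and no test was made. Differences are given on the log2(FPKM + 1) scale, which understates changes of low values, and a difference of at least 1 was called 2-fold. JUN was at 25.5, 4543 and 291 FPKM in control, JUN WT and JUN AA, and at 57.1, 55.3 and 21.1 FPKM in MRC5, iCAFs and iCAFs+JNKi. All 8 fibroblast markers were at 1 FPKM or more in all 6 libraries. Among 9 leukocyte markers, CD68 passed 1 FPKM in all libraries and LYZ in JUN AA, at 2.03 FPKM. JUN AA also held S100A9 at 0.307 FPKM and CSF3R at 0.0869 FPKM. From the list of proteases described below, it held the neutrophil genes ELANE at 2.18 FPKM and CTSG at 0.337 FPKM. Other leukocyte markers went another way. In control, JUN WT and JUN AA, CD14 was at 0.621, 0.239 and 0.126 FPKM, ITGAM at 0, 0.0336 and 0, and PTPRC at 0, 0.0148 and 0.00948. FCGR3B and S100A8 were listed at 0 in all libraries. Of 8 epithelial markers KRT8, at 5.80 to 19.3 FPKM, and KRT18, at 9.87 to 36.7 FPKM, were present in every library, KRT19 passed 1 FPKM in MRC5 alone, and CDH1, KRT5 and ESRP1 were at 0 in all. Of 4 endothelial markers TEK had 2.52, 3.77 and 10.4 FPKM in MRC5, iCAFs and iCAFs+JNKi and CDH5 was at 0 in all libraries, as was GP9 of 3 platelet markers. Summed over each list, leukocyte markers ranged from 33.2 FPKM in control to 86.0 FPKM in JUN WT, of which CD68 alone was 32.6 and 85.7 FPKM. Epithelial markers summed to 20.0 to 56.4 FPKM, endothelial to 0.222 to 10.7 FPKM and platelet to 0.0403 to 0.552 FPKM. In bulk RNA, fewer cells of a type and less RNA per cell cannot be told apart.

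The first question is how the chemokines stood after JUN was raised with or without its JNK sites. JUN WT carried low levels of CXCL8 and CXCL3, and the other 4 stayed below 1 FPKM in all 3 libraries. CXCL8, listed at 0 for the control, reached 4.46 FPKM with JUN WT and 0.103 FPKM with JUN AA. CXCL3 had 0.159, 2.96 and 0.397 FPKM in control, JUN WT and JUN AA. For both, JUN WT was the one high library and the other 2 lay below 0.4 FPKM, and both passed the filter, a mean of 1 FPKM or more over the table, only through it. The differences of JUN WT from control were 2.45 for CXCL8 and 1.77 for CXCL3, the 19th and 93rd highest of 10311 genes.

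CXCL2 had 0, 0.883 and 0.447 FPKM in control, JUN WT and JUN AA. CXCL1 was at 0.141 and 0.623 FPKM in control and JUN WT and was listed at 0 in JUN AA, while CXCL5 was at 0.0726, 0.393 and 0.219 FPKM. CXCL6, the exception, was at 0.0583 FPKM in the control and listed at 0 in both JUN libraries. Thus 5 of 6 members were higher in JUN WT than in the control, where the median difference of genes passing the filter was also above 0, at 0.15. Of the 6 members, 4 never reached 1 FPKM, and no fold change is given for these.

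Of the 2 members passing the filter, 2 were at least 2-fold higher and 0 lower in JUN WT than in control, where 6.92% of all genes were called higher and 3.39% lower. Between JUN AA and control 0 were higher and 0 lower, with differences of 0.14 for CXCL8 and 0.27 for CXCL3, beside 5.29% and 3.77% of all genes. In JUN WT against JUN AA, 2 were higher and 0 lower, by 2.31 for CXCL8 and 1.503 for CXCL3, beside 6.65% and 5.61%. Since both members passed through their JUN WT value, the 2 comparisons with it had to show a difference. The median over all 6 members was 0.71 in JUN WT against control, 0.16 in JUN AA against control and 0.54 in JUN WT against JUN AA, where the medians of all genes were 0.15, -0.02 and 0.18. These comparisons share libraries. Markers moved in the same libraries. In JUN WT against control 3 of 8 fibroblast markers and both passing epithelial markers were at least 2-fold lower, and CD68 was higher, with 32.6, 85.7 and 31.1 FPKM in control, JUN WT and JUN AA. In JUN WT against JUN AA 1 fibroblast marker was lower and CD68 again higher, and in JUN AA against control 1 fibroblast marker was higher and 2 lower and 1 epithelial marker lower. Their part in the chemokine values was not tested. JUN mRNA and the phosphorylation sites differed together between JUN WT and JUN AA and cannot be told apart.

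**Figure D2:**
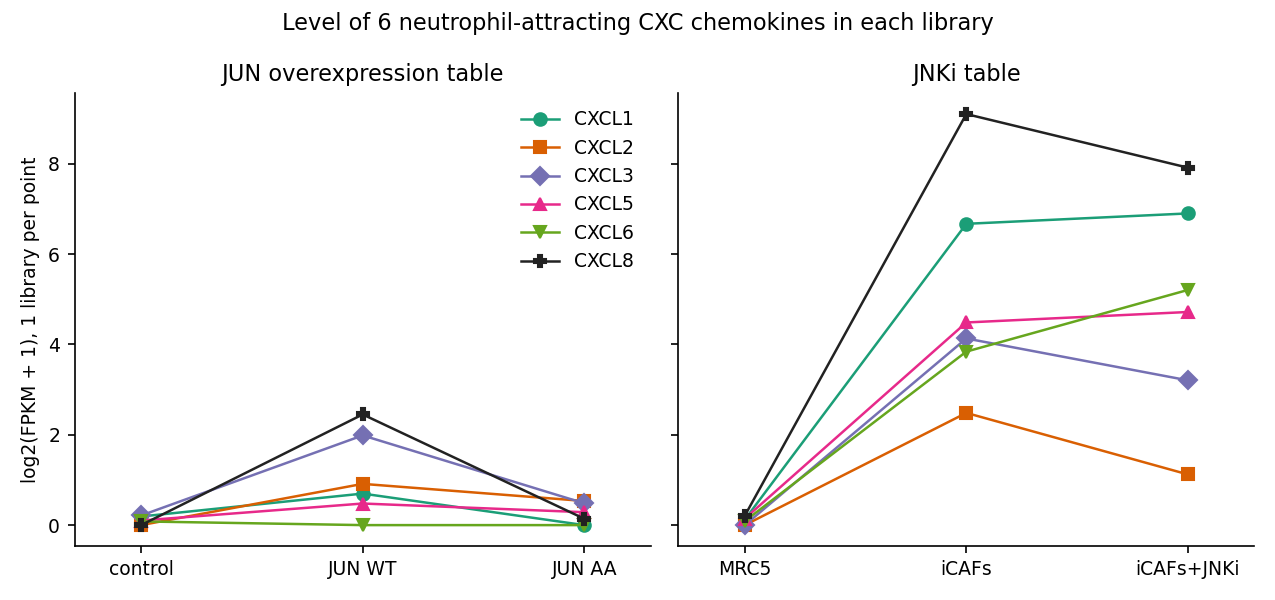
Level of each of the 6 chemokines as log2(FPKM + 1) on the vertical axis, 1 point per library, with lines joining the points of a gene and 1 panel per table. CXCL8 and CXCL3 stand above the rest in JUN WT at 4.46 and 2.96 FPKM, and all 6 are higher in iCAFs and iCAFs+JNKi than in MRC5, where none exceeds 0.153 FPKM.

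The second question is how the chemokines stood in iCAFs. All 6 chemokines were near 0 in MRC5 and all 6 were expressed in iCAFs, with CXCL8 at the top. In MRC5, iCAFs and iCAFs+JNKi, CXCL8 had 0.153, 548 and 240 FPKM. CXCL1 had 0.0877, 101 and 118 FPKM. CXCL8 was the 106th highest gene of the iCAFs library, above 99.6% of all symbols, and CXCL1 was 624th, above 97.5%.

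CXCL5 had 0.104, 21.4 and 25.3 FPKM in the same 3 libraries, and CXCL6 had 0.0628, 13.3 and 35.9 FPKM. CXCL3 was listed at 0 in MRC5 and was at 16.5 and 8.22 FPKM in the other 2 libraries. CXCL2 was also listed at 0 and then at 4.60 and 1.18 FPKM, the lowest of the family in both. The order of levels in iCAFs was CXCL8, CXCL1, CXCL5, CXCL3, CXCL6 and CXCL2, and with no replicates it cannot be said which neighbours differ beyond their spread.

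All 6 members passed the filter, but only through the iCAFs and iCAFs+JNKi values. In iCAFs against MRC5, 6 were at least 2-fold higher and 0 lower, beside 1.94% and 1.71% of 11780 genes. The differences were 8.89 for CXCL8, 6.55 for CXCL1, 4.34 for CXCL5, 4.13 for CXCL3, 3.75 for CXCL6 and 2.48 for CXCL2. From the highest, CXCL8 ranked 1st, CXCL1 3rd, CXCL5 12th, CXCL3 13th, CXCL6 15th and CXCL2 41st of all genes. The median of the members was 4.24 and that of all genes -0.06, with 5% of genes below -0.65 and 5% above 0.56. The summed epithelial markers, mostly KRT8 and KRT18, were 40.0, 33.3 and 39.6 FPKM in MRC5, iCAFs and iCAFs+JNKi, and 1 of 8 fibroblast markers was at least 2-fold lower in iCAFs than in MRC5. Their part in the chemokine values was not tested.

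The third question is what JNKi changed in iCAFs. The family split: CXCL2, CXCL8 and CXCL3 were lower, CXCL6 was higher, and CXCL1 and CXCL5 were within 1.2 times of their iCAFs level. CXCL2 was at 0.256 of its iCAFs value, CXCL8 at 0.438 and CXCL3 at 0.497, whereas CXCL6 was at 2.69 times, CXCL5 at 1.18 times and CXCL1 at 1.17 times. On the log2(FPKM + 1) scale the differences were -1.36 for CXCL2, -1.19 for CXCL8, -0.93 for CXCL3, 0.23 for CXCL1, 0.23 for CXCL5 and 1.37 for CXCL6.

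By the 2-fold call 1 member was higher and 2 were lower, where 2.25% of all genes were called higher and 1.97% lower. CXCL3 missed the call although its FPKM ratio was below 0.5, because 1 FPKM is added before the logarithm. CXCL2 was the 96th, CXCL8 the 143rd and CXCL3 the 278th lowest of 11780 differences, and CXCL6 was the 141st highest. The median of the 6 was -0.35 and that of all genes -0.10, with 5% of genes below -0.68 and 5% above 0.60. Fibroblast markers moved in the same pair of libraries: their sum was 3983 FPKM without and 6149 FPKM with JNKi, and 5 of 8 were at least 2-fold higher, as was the endothelial marker TEK. Their part in the result was not tested. CXCL8, CXCL3 and CXCL2 were also the 3 members with the highest FPKM in JUN WT, a likeness seen in single libraries and not tested. CXCL2 stood at 0.883 FPKM there and CXCL1 next at 0.623 FPKM, both below 1 FPKM. CXCL2 and CXCL3 were the highest members in JUN AA too, at 0.447 and 0.397 FPKM.

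**Figure D3:**
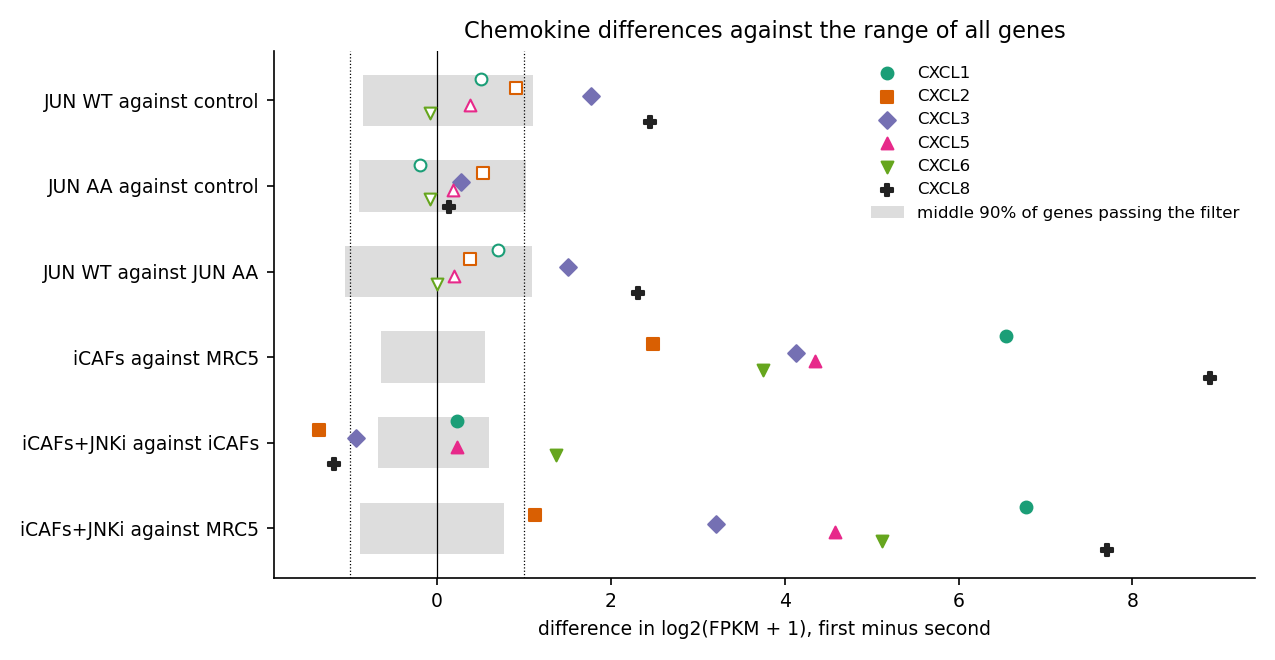
Differences in log2(FPKM + 1) on the horizontal axis for the 6 chemokines in the 6 comparisons; grey bands run from the lowest 5% to the highest 5% of genes passing the filter, dotted lines mark the 2-fold call and open symbols are members that did not pass. With JNKi, CXCL2, CXCL8 and CXCL3 lie at -1.36, -1.19 and -0.93, CXCL1 and CXCL5 at 0.23 and CXCL6 at 1.37.

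With JNKi, each of the 6 remained above its MRC5 value. In iCAFs+JNKi against MRC5, 6 were at least 2-fold higher and 0 lower, beside 3.28% and 3.53% of all genes. The differences were 7.71 for CXCL8, 6.78 for CXCL1, 5.12 for CXCL6, 4.58 for CXCL5, 3.21 for CXCL3 and 1.12 for CXCL2. CXCL8 and CXCL1 ranked 1st and 2nd of all genes. The members passed the filter only through the iCAFs and iCAFs+JNKi values, so the filter favoured these counts and ranks. This comparison shares its libraries with the 2 above.

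The mixture of chemokine mRNAs shifted as well. The sum of the 6 was 0.408, 705 and 429 FPKM in MRC5, iCAFs and iCAFs+JNKi, and 0.431, 9.32 and 1.17 FPKM in control, JUN WT and JUN AA. CXCL8 made up 77.8% of the sum in iCAFs and 55.9% with JNKi, while CXCL1 went from 14.3% to 27.6% and CXCL6 from 1.9% to 8.4%. There were 5.43 CXCL8 for each CXCL1 in iCAFs and 2.03 with JNKi, and 41.1 and 6.68 for each CXCL6. CXCL1 to CXCL5 stayed at 4.71 and 4.68, and CXCL8 to CXCL3 at 33.1 and 29.2. In JUN WT, CXCL8 held 47.9% and CXCL3 31.8% of the sum.

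**Figure D4:**
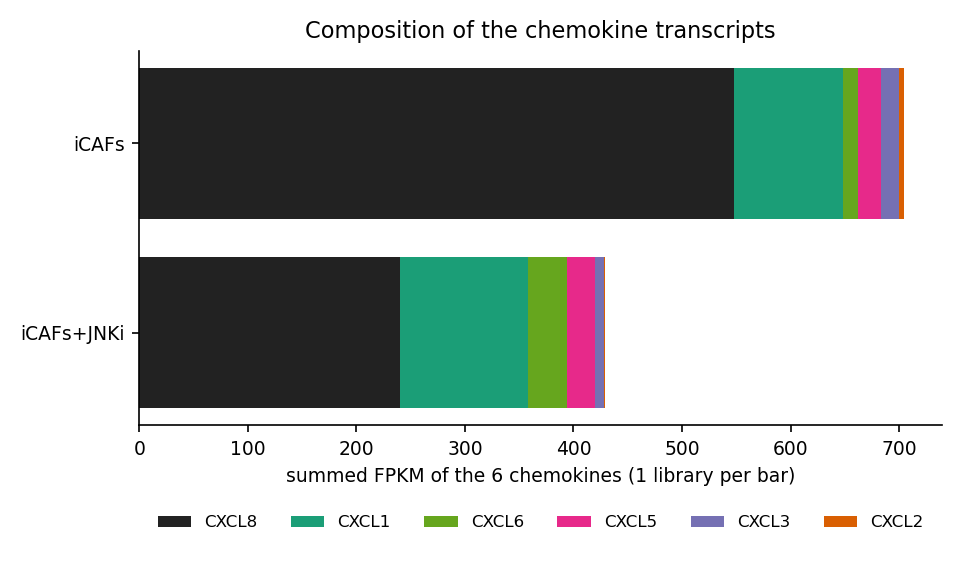
Summed FPKM of the 6 chemokines in iCAFs and iCAFs+JNKi, 1 library per bar, with 1 colour per gene. The bars reach 705 and 429 FPKM, of which CXCL8 holds 77.8% and 55.9% and CXCL1 holds 14.3% and 27.6%.

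All 6 genes lie on chromosome 4, over 358.7 kb of GRCh37 from 74606236 to 74964913. CXCL8 (74606236 to 74609433), CXCL6 (74702357 to 74714781) and CXCL1 (74735110 to 74737025) read on the plus strand, and CXCL5 (74861359 to 74864394), CXCL3 (74902306 to 74904524) and CXCL2 (74962757 to 74964913) on the minus strand. The members lower with JNKi thus sit at the ends, CXCL8 at one and CXCL3 and CXCL2 at the other, with CXCL6, CXCL1 and CXCL5 between them. The platelet chemokine genes PF4V1 and PPBP and the PPBP-like PPBPP2, inside the cluster, were listed at 0 in all 6 libraries. PF4, also inside it, was at 0.427, 0.254 and 0.807 FPKM in control, JUN WT and JUN AA and at 0 in the JNKi table.

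Within 300000 bases on either side, AFM and RASSF6 stayed at or below 0.122 FPKM and MTHFD2L between 0.611 and 1.29 FPKM. EPGN was at 0.0670, 0.257 and 2.84 FPKM in control, JUN WT and JUN AA and at most 0.0381 FPKM in the JNKi table. EREG, which encodes the growth factor epiregulin, had 7.44, 31.6 and 24.3 FPKM in MRC5, iCAFs and iCAFs+JNKi. The difference between the first 2 was 1.95, below that of each of the 6 chemokines. In control, JUN WT and JUN AA, EREG had 1.59, 3.74 and 0.951 FPKM, highest in JUN WT as CXCL8 and CXCL3 were. Its difference of JUN WT from JUN AA was 1.28.

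**Figure D5:**
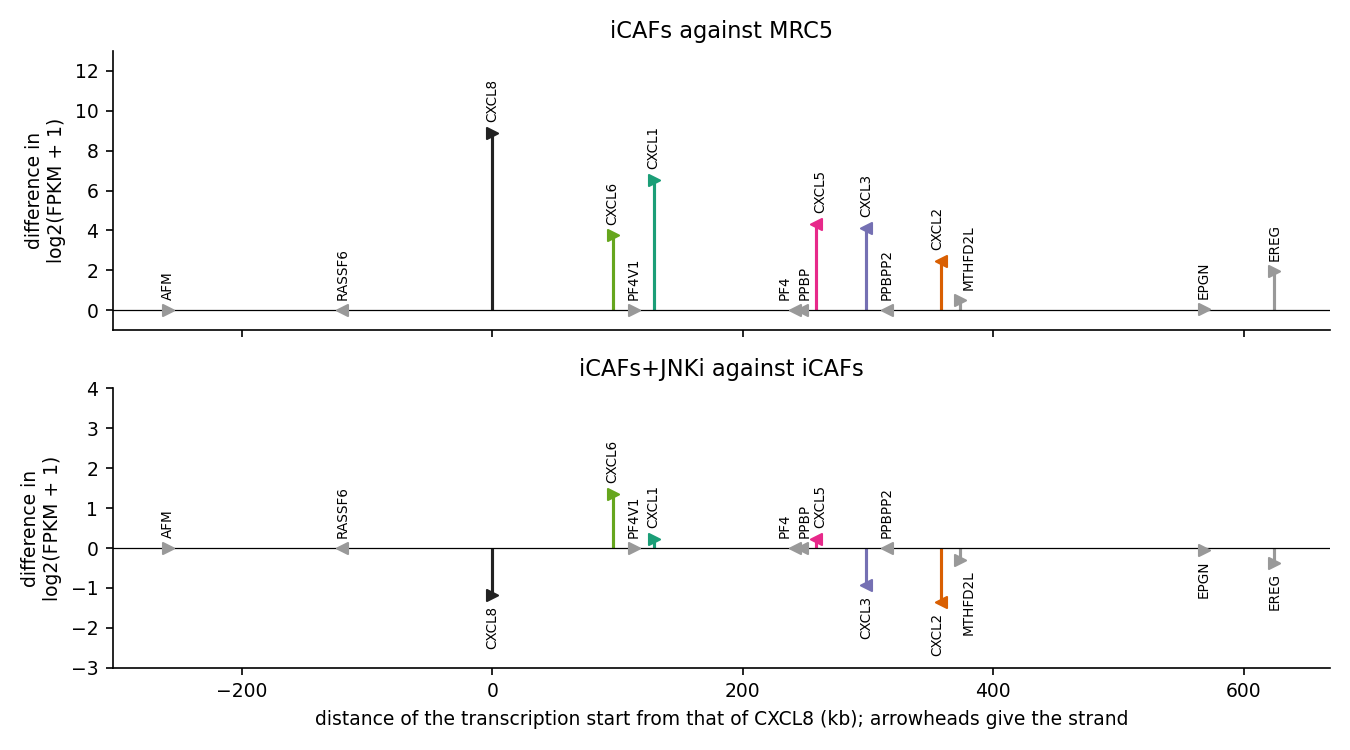
Genes of the chemokine cluster by the distance of their start from that of CXCL8 in kb, with the difference in log2(FPKM + 1) on the vertical axis, for iCAFs against MRC5 above and iCAFs+JNKi against iCAFs below; arrowheads give the strand and grey marks genes that are no members. In the lower panel CXCL8 at one end and CXCL3 and CXCL2 at the other point down, and CXCL6 at 96.1 kb points up.

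Close relatives can trade reads. Of the 50-base windows of their canonical transcripts, CXCL1 shared 60 of 1125, CXCL2 108 of 1066 and CXCL3 54 of 1026 with another CXC gene, and CXCL5, CXCL6 and CXCL8 shared 0. No 100-base window was shared by any of the 6. Exons of CXCL6 overlap 94 bases of the pseudogene PPBPP1 on the same strand, and those of CXCL5 overlap 422 bases of a noncoding gene on the opposite strand, and their values are uncertain to that extent. Their mRNAs are rich in ATTTA, the pentamer of AU-rich elements: 3′ UTRs held 6 in CXCL1, 10 in CXCL2, 7 in CXCL3, 11 in CXCL5, 6 in CXCL6 and 9 in CXCL8, against a median of 2 over 19400 canonical transcripts. Between 10.9% and 24.4% of all transcripts held at least as many, and longer 3′ UTRs hold more.

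The receptors CXCR1 and CXCR2 and the decoy receptor ACKR1 were listed at 0 in all 6 libraries. A list of 7 further CXC chemokines of chromosome 4 takes in those of platelets and those induced by interferon, and of these CXCL10 alone passed the filter in either table. It had 0.388, 3.48 and 0 FPKM in MRC5, iCAFs and iCAFs+JNKi and 5.64, 7.82 and 0.554 FPKM in control, JUN WT and JUN AA. It was thus 1 called higher in iCAFs against MRC5 and in JUN WT against JUN AA, and 1 called lower with JNKi and in JUN AA against control. In the JNKi table CXCL10 passed only through its iCAFs value, so both calls there had to show a difference.

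A list of 22 cytokines and receptors was built around induction of the chemokines, and it also holds the antagonist IL1RN and the decoy receptor IL1R2. Of the 22, 10 passed the filter in the JUN table and 12 in the JNKi table. The 2-fold call put 4 higher and 0 lower in iCAFs against MRC5 (1.94% and 1.71% of all genes), and 1 higher and 4 lower with JNKi (2.25% and 1.97%). IL1A was among the 4 in both calls and passed the filter only through its iCAFs value of 12.5 FPKM. The medians of the list were 0.81 and -0.12. IL1B had 0, 194 and 25.9 FPKM in MRC5, iCAFs and iCAFs+JNKi. IL6 had 0.627, 129 and 16.4 FPKM and LIF 13.02, 104 and 4.06 FPKM, so that all 3 were highest in iCAFs. With JUN, 1 was higher in JUN WT (6.92% of all genes) and 2 in JUN AA (5.29%) than in control. In JUN WT against JUN AA 1 was higher (6.65%), and 0 were lower in each comparison. A count of 1 in a short list was not read as a result, here or in the lists that follow. LIF had 3.04, 10.9 and 8.89 FPKM there. IL6 shares exon bases with STEAP1B and IL6-AS1, and LIF with LIF-AS1 and LIF-AS2, and both values are uncertain to that extent.

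Of 21 transducers between these receptors and NF-kB or JNK, 20 passed in the JNKi table. In iCAFs 2 were higher and 0 lower (1.94% and 1.71% of all genes), and with JNKi 0 were higher and 1 lower (2.25% and 1.97%). That one was IRAK2, a kinase below the IL-1 receptor, at 4.54, 20.7 and 4.001 FPKM. The medians of the list were 0.03 and -0.08. Among the JUN libraries, 17 passed. Here 3 were higher and 0 lower in JUN WT against control (6.92% and 3.39% of all genes) as well as against JUN AA (6.65% and 5.61%). In JUN AA against control 0 were higher and 1 lower (5.29% and 3.77%). MYD88, the adaptor of the same receptor, was at 22.4, 43.9 and 8.54 FPKM in control, JUN WT and JUN AA.

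Of 22 transcription factors and feedback inhibitors, 19 passed in the JNKi table. In iCAFs 6 were higher and 0 lower (1.94% and 1.71% of all genes), and with JNKi 0 were higher and 5 lower (2.25% and 1.97%). Medians were 0.80 and -0.74. NFKBIZ, a nuclear partner of NF-kB, was at 4.81, 46.7 and 38.4 FPKM. The inhibitors TNFAIP3, at 1.64, 14.7 and 6.44 FPKM, and NFKBIA, at 9.97, 57.3 and 23.4 FPKM, lay between their MRC5 and iCAFs values with JNKi. TNIP1, which works with TNFAIP3, was at 173 FPKM in iCAFs and 73.4 FPKM with JNKi. TNFAIP3 and NFKBIZ share exon bases with neighbours. In JUN WT 3 of 17 were higher and 3 lower than in control (6.92% and 3.39% of all genes). From control to JUN WT, ATF3 was at 7.87 and 38.2 FPKM and CEBPD at 84.0 and 21.7 FPKM. In JUN AA 1 was higher and 1 lower than in control (5.29% and 3.77%), FOSL1 going from 56.9 to 26.2 FPKM. In JUN WT against JUN AA 7 were higher and 1 lower (6.65% and 5.61%). JUN, the introduced gene, is 1 of those counted higher in each of these 3 comparisons and the only one in JUN AA against control.

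All 12 genes that control chemokine mRNA decay passed. ZC3H12A, an RNase that cuts chemokine mRNA, was at 2.48, 28.7 and 11.1 FPKM in MRC5, iCAFs and iCAFs+JNKi, and DUSP1, which switches off p38 and JNK, at 32.6, 86.7 and 41.1 FPKM. These were the 2 called higher in iCAFs (1.94% of all genes) and the 2 called lower with JNKi (1.97%). In JUN WT and JUN AA against control 0 were called, where 6.92% and 5.29% of all genes were higher and 3.39% and 3.77% lower. The medians of the list were 0.05 and 0.05. MAPKAPK2, the kinase through which p38 stabilises these mRNAs, was the 1 called in JUN WT against JUN AA, with 25.4 and 11.8 FPKM. Of all genes 6.65% were called higher there.

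A list of 17 other genes tied to myeloid cells holds secreted factors, the enzymes PTGS2 and PTGES and the adhesion molecules ICAM1 and VCAM1. Of these, 10 passed in the JNKi table. In iCAFs 8 were higher and 0 lower (1.94% and 1.71% of all genes), and with JNKi 1 was higher and 5 lower (2.25% and 1.97%). Medians were 3.0 and -1.32. CSF3, the growth factor of neutrophils, had 0, 22.8 and 0.796 FPKM in MRC5, iCAFs and iCAFs+JNKi. CCL20, a chemokine for lymphocytes and dendritic cells, had 0, 27.4 and 1.80 FPKM, and PTGS2, the inducible cyclooxygenase, 0.274, 41.5 and 6.61 FPKM. CSF3 and CCL20 passed the filter only through their iCAFs values, so both had to differ in the comparisons with iCAFs. CXCL12 was the one higher with JNKi, at 2.13, 12.1 and 118 FPKM. Of the 7 passing with JUN, 1 was higher and 1 lower in JUN WT against control (6.92% and 3.39% of all genes). In JUN AA against control 0 were higher and 3 lower (5.29% and 3.77%). In JUN WT against JUN AA 4 were higher and 0 lower (6.65% and 5.61%). Of 14 proteases that trim chemokines, 8 passed in the JNKi table. In iCAFs 2 were higher (1.94% of all genes), and with JNKi 1 was lower (1.97%). Medians were 0.42 and 0.07. MMP1 was at 344, 1042 and 455 FPKM and MMP3 at 33.7, 290 and 268 FPKM. With JUN, 4 of 9 were higher and 1 lower in JUN WT than in control (6.92% and 3.39% of all genes). MMP1 went from 31.1 to 414 FPKM and MMP3 from 3.61 to 43.4 FPKM. In JUN AA 2 were higher and 2 lower than in control (5.29% and 3.77%), MMP14 going from 677 to 256 FPKM. In JUN WT against JUN AA 6 were higher and 0 lower (6.65% and 5.61%). MMP1 and MMP3 both share exon bases with WTAPP1.

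The genes most like the family were sought over profiles of 6 values, log2(FPKM + 1) minus the mean of each table, among 10018 genes. Nearest to the mean profile of the 6 were TFPI2 at a distance of 1.46, ID1 at 1.87, IL6 at 1.93, INHBA at 1.97 and TMEM132A at 1.99. TFPI2, a protease inhibitor, was at 18.4, 74.9 and 20.9 FPKM in control, JUN WT and JUN AA and at 21.9, 266 and 214 FPKM in MRC5, iCAFs and iCAFs+JNKi. These genes did not all follow the family in the JUN table. In control, JUN WT and JUN AA, ID1 had 82.6, 46.5 and 61.4 FPKM and TMEM132A 35.1, 27.95 and 17.1 FPKM. Both were lower in JUN WT than in control, unlike CXCL8 and CXCL3. IL6 had 0.805, 2.43 and 0.251 FPKM there and INHBA 6.89, 9.96 and 2.98 FPKM, both highest in JUN WT. In MRC5, iCAFs and iCAFs+JNKi, ID1 had 9.61, 94.0 and 120 FPKM, INHBA 29.2, 179 and 225 FPKM and TMEM132A 16.9, 144 and 105 FPKM. By member the nearest gene was AREG for CXCL1 at 2.33, FGF2 for CXCL2 at 0.16, TFPI2 for CXCL3 at 0.54, ID1 for CXCL5 at 1.25, DIO2 for CXCL6 at 1.23 and IL6 for CXCL8 at 3.24. DIO2 was at 0.984, 18.0 and 74.5 FPKM in the JNKi table, lowest in MRC5 and highest with JNKi as CXCL6 was. FGF2 was at 16.4, 89.9 and 35.9 FPKM there, highest in iCAFs as CXCL2 was. AREG, at 1.97, 71.8 and 117 FPKM, was highest with JNKi as CXCL1 was. In control, JUN WT and JUN AA, AREG had 24.9, 5.29 and 12.1 FPKM, lowest in JUN WT where CXCL1 was highest. DIO2 had 2.26, 0.165 and 2.02 FPKM in these libraries, and FGF2 4.04, 9.46 and 6.02 FPKM, highest in JUN WT as CXCL2 was. The values of AREG, which has a near-identical copy in hg19 annotations, and of FGF2, DIO2, TFPI2, INHBA and TMEM132A, which share exon bases with other genes, are uncertain to that extent. Among the members themselves CXCL5 and CXCL6 were nearest, at 0.87, and CXCL2 and CXCL8 farthest apart, at 5.50. This distance grows with the size of changes and does not measure direction alone. CXCL2 and CXCL8 were both higher in iCAFs than in MRC5, by 2.48 and 8.89, and both lower with JNKi, by -1.36 and -1.19. With JNKi, CXCL5 and CXCL6 differed by 0.23 and 1.37.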

How the data were processed

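RNA-seq was made from 6 MRC5 libraries, 1 per condition, grouped by the sample labels. The authors mapped reads to hg19 with HISAT2 2.1.0 and deposited FPKM per gene from StringTie 2.1.1. Annotation, strand setting and read depth are not given in the sources used here, so the precision of single values is unknown. Each table has 25370 rows and 25368 symbols, and a repeated symbol was taken from its row of highest mean.

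Differences of log2(FPKM + 1) were computed within a table in Python 3.11.15 with pandas 2.3.3 and numpy 2.4.6. The filter kept genes averaging 1 FPKM or more over the 3 libraries of a table. The computation was checked on simulated data, but only for genes averaging 5 FPKM or more. That check does not cover lower values, which include all members in the JUN table and CXCL2 in the JNKi table. FPKM are not counts and there are no replicates, so no test was run. The members and gene lists were chosen with earlier results of these data known. From each list at most 3 genes per comparison are named, those with the largest difference at a mean of at least 5 FPKM and a 2-fold call; all members, genes within 300000 bases and the nearest profiles are named too, and a name outside this rule, such as CXCL10, was added after its values were seen. Promoters are from RefSeq (GRCh38.p14) and gene positions from GENCODE on GRCh37, the assembly of hg19. Protein sequences were not analysed here. As alternatives, the pseudocount was set to 0.1, libraries were rescaled to sums of 1000000 FPKM, and the rest were centring on the median gene, no filter and a filter of 5 FPKM.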

Additional observations from a re-analysis of the deposited data

How the results depend on the processing

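No paired analysis was possible because each condition has 1 library, and for the same reason no library could be left out. Only rescaling and centring could reverse the direction of a member's difference, since the pseudocount and the filters cannot change its sign. Neither reversed one, and centring took CXCL6 in JUN WT against JUN AA from 0.000 to -0.184. Of 108 differences of single members, 56 moved by at most 0.25 on the log2 scale and 52 by more, 30 with a pseudocount of 0.1 FPKM and 22 with FPKM rescaled to a sum of 1000000. The median difference of the members passing the filter was 2.11 in JUN WT against control, and 4.54 with the pseudocount of 0.1, 2.85 with rescaling and 0.71 with no filter. In JUN WT against JUN AA it was 1.91, and 3.56, 2.58 and 0.54 in the same order. In JUN AA against control it was 0.21, and 0.98 with the pseudocount of 0.1, where 1 member in place of 0 was called higher. In iCAFs against MRC5 it was 4.24, and 7.05 with that pseudocount and 5.44 with rescaling. In iCAFs+JNKi against MRC5 it was 4.85, and 7.37, 6.13 and, with a filter of 5 FPKM, 5.12. That filter left out CXCL2, so in iCAFs+JNKi against iCAFs 1 member in place of 2 was lower and the median went from -0.35 to 0.23. It left no member in the JUN table and gave no value there. Lower values weigh more with the smaller pseudocount by construction. Background counts moved too: in JUN WT against control 714 genes were higher, and 1229 with the pseudocount of 0.1, 436 centred and 458 at 5 FPKM. The share of higher among called genes went from 67.1% to 45.5% centred there, from 58.4% to 26.1% rescaled in JUN AA against control, and from 54.3% to 82.9% rescaled or 33.3% centred in JUN WT against JUN AA. It went from 53.3% to 62.7% rescaled or 64.0% centred in iCAFs+JNKi against iCAFs, and from 48.1% to 59.3% or 65.9% in iCAFs+JNKi against MRC5. Depth is unknown, so no counting error can be given, which limits most the values below 1 FPKM.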
